A study of Mus musculus with 2 samples.

Results

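The genes Mir148a, Mir148b and Mir152 (the miR-148 family) and Mir130a, Mir130b, Mir301 and Mir301b (the miR-130 family) were followed in mouse heart. They were taken by symbol from GENCODE M21, the gene annotation used for the counts, and all 7 were found among 2202 measured miRNA genes. The gene IDs are ENSMUSG00000065505.1 for Mir148a, ENSMUSG00000065560.1 for Mir148b, ENSMUSG00000065515.1 for Mir152, ENSMUSG00000065484.1 for Mir130a, ENSMUSG00000065572.1 for Mir130b, ENSMUSG00000065589.1 for Mir301 and ENSMUSG00000076288.1 for Mir301b. Total RNA was taken from the heart of female mice of B6CASTF1/J, a cross of the C57BL/6 and CAST strains, aged 36 days, with no treatment named, and its small RNA was sequenced. The age is that of the labels' age field, while a free-text label gives the same number in months. The 2 libraries, biological replicates 1 and 2, form a single group with no control, so the data give levels and the spread between 2 hearts. The hearts have separate records and share 1 donor code, which was taken to stand for the strain. If it stood for 1 animal, the spread given here (SD, n = 2) would be technical. The p-values below speak of these 2 libraries and not of a condition. Reads on miRNA genes numbered 2074961 in replicate 1 and 1766135 in replicate 2, and levels are given as sense counts per 1000000 of these (CPM).

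A miRNA is a short RNA cut from a hairpin transcript and loaded into an Argonaute protein, which it guides to messenger RNAs. The guide pairs mainly through its seed, bases 2 to 8, so miRNAs with the same seed form a family with largely shared targets. In human and mouse work miR-148a is known as a repressor of the LDL receptor and of the cholesterol exporter ABCA1, and in human cells miR-148 and miR-152 repress the DNA methyltransferase DNMT1. In human endothelial cells miR-130a is known to repress the homeobox genes GAX and HOXA5, and miR-130 represses PPARG, a regulator of fat cells. Bulk counts cannot tell fewer cells of a type from less RNA per cell.

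The mature sequences define the families and show how close the members are, with the seed in capitals. They are the 3p arms of 6 of the 7 genes, from RefSeq (build GRCm38.p6), and miR-301b is named only. The first 3 belong to the miR-148 family and the last 3 to the miR-130 family.
miR-148a-3p, chr6:51269829-51269850, minus strand: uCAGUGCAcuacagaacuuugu
miR-148b-3p, chr15:103285185-103285206, plus strand: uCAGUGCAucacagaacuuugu
miR-152-3p, chr11:96850439-96850459, plus strand: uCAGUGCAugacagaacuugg
miR-130a-3p, chr2:84741116-84741137, minus strand: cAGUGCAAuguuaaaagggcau
miR-130b-3p, chr16:17124071-17124092, minus strand: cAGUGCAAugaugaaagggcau
miR-301a-3p (from Mir301), chr11:87113054-87113076, plus strand: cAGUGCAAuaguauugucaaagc

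The members listed had the same seed within a family, CAGUGCA in the miR-148 family and AGUGCAA in the miR-130 family. The 2 seeds share 6 bases with an offset of 1, and the miR-148 seed stands at bases 1 to 7 of every miR-130 member listed. The perfect DNA match to the miR-148 seed is TGCACTG and that to the miR-130 seed is TTGCACT, so the run TTGCACTG of 8 bases holds both. Counted from base 1 at the 5′ end, miR-148b differed from miR-148a by C9U and U10C, and miR-152 differed from miR-148a by C9U, U10G and U20G. miR-130b differed from miR-130a by U11A and A13G. Mir301 shared its first 9 bases with miR-130a and 12 of 22 positions in all.

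Among 1738 mature miRNAs in the table, 4 genes outside the family carried the miR-130 seed, and none outside the 3 members carried the miR-148 seed. The 4 with the miR-130 seed are given because they could pair with the same sites.
miR-721: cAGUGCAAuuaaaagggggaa
miR-130c: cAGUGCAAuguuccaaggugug
miR-6341: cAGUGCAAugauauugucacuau
miR-6389: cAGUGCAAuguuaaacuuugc
All 4 genes, Mir721, Mir130c, Mir6341 and Mir6389, had 0 counts in both hearts. Since 0 counts are compatible with up to 3, levels of up to 1.45 CPM (replicate 1) and 1.70 CPM (replicate 2) remain possible. These bounds cover counting error only and leave out reads that mapped to several places, which entered no count. Mir130a, Mir130b and Mir301 were thus the genes with this seed in the table at which reads were counted.

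Counts were made per hairpin, so the 5p and 3p arms of a hairpin stand in a single value. The hairpins of the member with the highest mean level in each family show both arms in capitals. In the miR-148 family that is Mir152, although Mir148a was nearly equal and was the higher in replicate 2. Mir130a lies at chr2:84741115-84741178 on the minus strand and Mir152 at chr11:96850393-96850465 on the plus strand.
Mir130a hairpin: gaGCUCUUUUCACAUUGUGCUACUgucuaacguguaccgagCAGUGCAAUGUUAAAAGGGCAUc
Mir152 hairpin: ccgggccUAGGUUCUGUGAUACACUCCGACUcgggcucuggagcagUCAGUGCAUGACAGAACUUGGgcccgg
No member shared a run of 18 bases with another annotated hairpin. The longest shared runs were 17 bases between Mir130a and Mir6389, 16 between Mir130b and Mir6368, 16 between Mir301 and Mir301b, and 15 between Mir148a and Mir148b. Reads that mapped to several places were counted at no gene, and they made up 42.0% of all reads in replicate 1 and 39.8% in replicate 2. How many of them came from these families was not tested.

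Of the 7 genes, 5 lay in the first intron of a protein-coding gene on the same strand, and in no annotated transcript did they overlap an exon. Mir148b and Mir152 lay in the paralogous genes Copz1 and Copz2, which encode zeta subunits of the COPI coat of transport vesicles. Mir148b began 12215 bp after the start of its host transcript, and Mir152 only 517 bp after the start of its own. Mir301 (chr11:87113004-87113089, plus strand) lay 3770 bp into Ska2, a gene of the spindle and kinetochore complex. Mir301b and Mir130b lay 644 and 998 bp into 2610318N02Rik, with 257 bp between the hairpins. Mir148a and Mir130a were intergenic: the nearest annotated gene was the lincRNA Gm32479, 13621 bp away, for Mir148a, and Gm19426, 990 bp away on the same strand, for Mir130a. Of the other members, Mir148b had the closest miRNA gene, 65233 bp away.

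**Figure D1:**
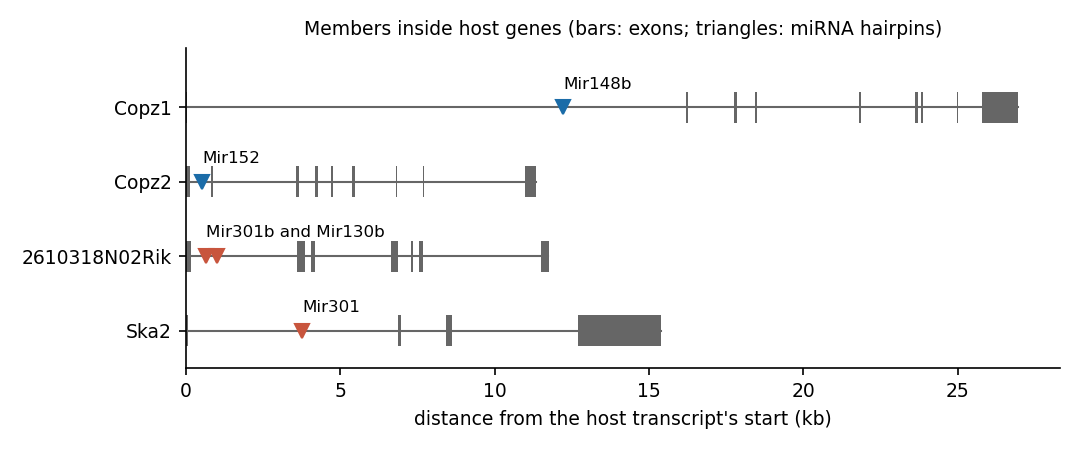
Position of the 5 intronic members in their host transcripts, in kb from the transcript start; grey bars are exons and triangles are miRNA hairpins. Each triangle stands between the first and the second exon, from 517 bp after the start for Mir152 to 12215 bp for Mir148b.

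Mir130a was the most abundant member in both hearts and stood apart from the rest. It had 5732 counts in replicate 1 and 6534 in replicate 2, or 2762 CPM (95% exact interval 2692 to 2835) and 3700 CPM (3611 to 3790). Its mean of 3231 ± 663 CPM (SD, n = 2) put it at rank 32 of 2202 genes, and its lowest value was over 10 times the highest of any other member. The mature forms are 21 to 23 bases long in all members listed, so CPM was not divided by length. The exact intervals cover counting error only. Since PCR copies are not independent molecules, they can be too narrow even for that.

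The other miR-130 genes were far lower. Mir130b had 286 and 196 counts, or 138 and 111 CPM, with a mean of 124 ± 19.0 CPM (SD, n = 2). Mir301 had 110 and 345 counts, or 53.0 and 195 CPM, with a mean of 124 ± 101 CPM (SD, n = 2). Their means were alike while their hearts were not: Mir130b was the higher in replicate 1 and Mir301 in replicate 2. Mir301b had 3 and 1 counts, or 1.45 and 0.566 CPM, below the limit of 2 CPM in both libraries that was used to call a gene detected. Mir301b was therefore near the floor in these counts, although it lies beside Mir130b on the same strand. Reads that mapped to several places entered no count, and its hairpin shares a run of 16 bases with that of Mir301. Whether Mir301b lost reads in this way was not tested.

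In the miR-148 family, Mir152 and Mir148a had nearly equal levels and Mir148b was the lowest. Mir152 had 216 and 408 counts, or 104 and 231 CPM, with a mean of 168 ± 89.7 CPM (SD, n = 2). Mir148a had 199 and 411 counts, or 95.9 and 233 CPM, with a mean of 164 ± 96.7 CPM (SD, n = 2). Both were higher in replicate 2. Mir148b had 128 and 129 counts, or 61.7 and 73.0 CPM, with a mean of 67.4 ± 8.03 CPM (SD, n = 2). The 3 genes held ranks 119, 121 and 159.

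**Figure D2:**
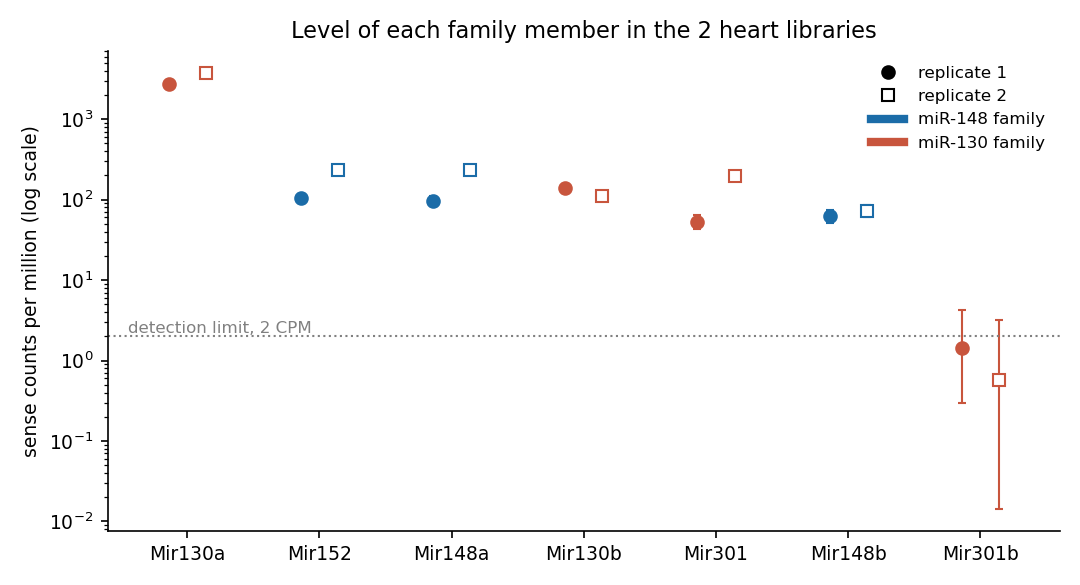
Sense CPM of each member on a log axis, filled circles for replicate 1 and open squares for replicate 2, with 95% exact intervals that cover counting error. Mir130a stands alone at 2762 and 3700 CPM, 5 members lie between 53.0 and 233 CPM, and Mir301b lies below the detection limit of 2 CPM.

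In the order of mean levels, Mir130a, Mir152, Mir148a, Mir130b, Mir301, Mir148b and Mir301b, the first step and the last step held in both hearts with no overlap. The 4 steps between Mir152 and Mir148b each held in only 1 of the 2 libraries, so these neighbours did not differ beyond the spread between hearts. Some wider steps did hold in both libraries: Mir148a, Mir152 and Mir130b each exceeded Mir148b, and Mir152 and Mir148a each exceeded Mir301. Of the 7 members, 6 were detected; over all measured genes the share detected was 15.2%. The median of the members' mean CPM was 164 in the miR-148 family and 124 in the miR-130 family.

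Summed by family, the miR-130 genes took up 0.295% (replicate 1) and 0.401% (replicate 2) of the sense counts, or 3481 ± 744 CPM (SD, n = 2). The miR-148 genes took up 0.0262% and 0.0537%, or 399 ± 195 CPM (SD, n = 2). Within a library, the miR-130 sum was 11.3-fold the miR-148 sum in replicate 1, with an exact interval of 10.3 to 12.3. In replicate 2 it was 7.46-fold, with an interval of 6.97 to 7.996. These ratios do not depend on how the libraries are scaled against each other. Without Mir130a, the other miR-130 genes summed to 192 and 307 CPM, below the miR-148 sums of 262 and 537 CPM.

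Mir130a alone made up 93.5% (exact interval 92.8 to 94.1) of the counts of its family in replicate 1 and 92.3% (91.7 to 92.9) in replicate 2. The order of the next 2 genes was opposite in the 2 hearts. Mir130b held 4.66% (4.15 to 5.22) in replicate 1 and 2.77% (2.40 to 3.18) in replicate 2, while Mir301 held 1.79% (1.48 to 2.16) and 4.88% (4.39 to 5.40). Mir301b held 0.0489% and 0.0141%.

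The miR-148 family was shared more evenly. Mir152 held 39.8% (35.6 to 44.0) of it in replicate 1 and 43.0% (39.9 to 46.3) in replicate 2, and Mir148a 36.6% (32.6 to 40.9) and 43.4% (40.2 to 46.6). Mir148b held 23.6% (20.1 to 27.4) and 13.6% (11.5 to 16.0). The intervals of Mir148b did not overlap between the hearts, while those of Mir148a and those of Mir152 did. Overlap does not show that 2 shares are equal, and no test of the shares was run. For Mir152 and Mir148b, the pair that lies in the Copz paralogs, the ratio differed between the 2 libraries beyond counting error, as given below. Whether it follows the host genes was not tested.

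**Figure D3:**
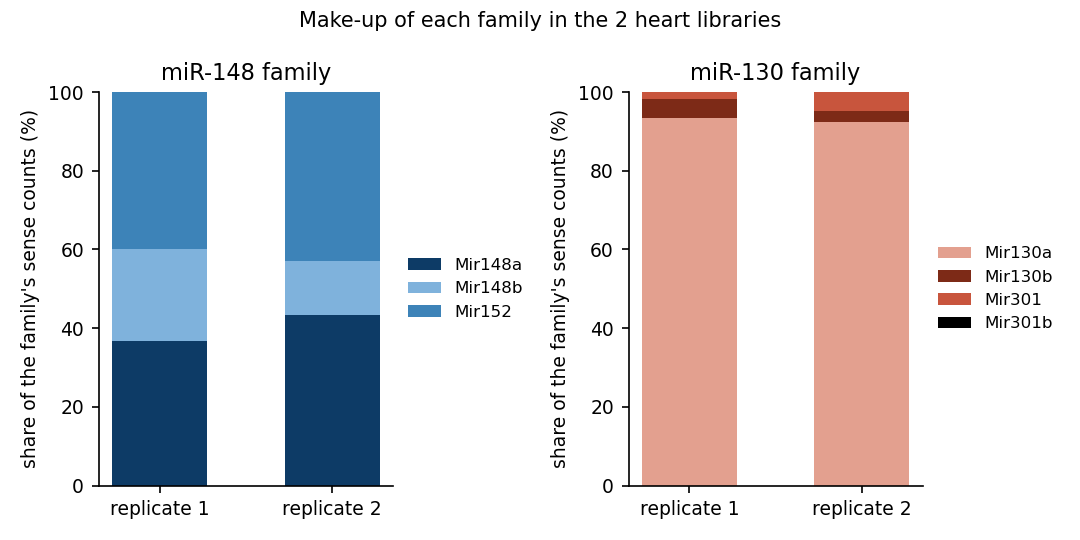
Share of each member in the sense counts of its family, in percent, replicate 1 left and replicate 2 right. Mir130a fills over 92% of the miR-130 bars, and the Mir148b share of the miR-148 bar is 23.6% in replicate 1 and 13.6% in replicate 2; Mir301b is too small to see.

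Ratios between members were also taken within each library. Mir148a was 1.55-fold Mir148b (exact interval 1.24 to 1.96) in replicate 1 and 3.19-fold (2.61 to 3.91) in replicate 2. Mir152 was 1.69-fold Mir148b (1.35 to 2.12) and 3.16-fold (2.59 to 3.89), so both ratios to Mir148b were higher in replicate 2. Mir130a was 20.0-fold Mir130b (17.8 to 22.6) and 33.3-fold (28.9 to 38.6), and 52.1-fold Mir301 (43.1 to 63.5) and 18.9-fold (16.99 to 21.2). The ratio of Mir148a to Mir152 was 0.921 (0.756 to 1.12) and 1.01 (0.876 to 1.16), so its interval held 1 in both hearts. Mir130b stood to Mir301 as 2.60 (2.08 to 3.27) in replicate 1 and 0.568 (0.474 to 0.679) in replicate 2, an order that was opposite in the 2 hearts beyond counting error. The neighbours Mir130b and Mir301b differed 95.3 times (32.3 to 465) and 196 times (34.8 to 7781), and these intervals are wide because Mir301b had few counts.

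The 2 hearts were then compared gene by gene with an exact binomial test of each gene's counts, given TMM-scaled library sizes (the trimmed mean of M values, which sets most genes equal), with Benjamini-Hochberg adjustment over all 359 tested genes. Of the 6 members with 10 or more counts, 5 differed. Over all tested genes, 44.3% differed, 24.2% with the higher value in replicate 1 and 20.1% in replicate 2, so a difference between these hearts was common. All 6 members had 50 or more counts, and of the 246 genes with that many, 61.0% differed when adjusted over these genes alone. Mir130a, Mir152, Mir148a and Mir301 were higher in replicate 2, and Mir130b was higher in replicate 1. The members' median log2 ratio, replicate 1 over replicate 2, was -0.62, against 0.01 over all tested genes, and their median absolute log2 ratio was 0.73, against 0.42. These medians over all tested genes include genes with fewer than 50 counts, and none was taken over the 246 genes alone.

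Mir301 differed the most, with a log2 ratio of -1.71 (adjusted p = 9.97e-31, exact binomial test), or 3.28-fold higher (exact interval 2.64 to 4.10) in replicate 2. Mir148a followed with -1.11 (adjusted p = 2.56e-19, exact), or 2.16-fold (1.82 to 2.57), and these were the 2 members past 2-fold. Over all tested genes, 14.2% differed by 2-fold or more. Mir152 had -0.98 (adjusted p = 6.01e-16, exact), or 1.97-fold (1.67 to 2.34), also towards replicate 2. Mir130a had a small difference that its depth resolved, with -0.25 (adjusted p = 2.80e-21, exact), or 1.19-fold (1.15 to 1.23).

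Mir130b went the other way, with a log2 ratio of 0.48 (adjusted p = 0.000893, exact binomial test), or 1.40-fold higher (1.16 to 1.68) in replicate 1. Mir148b had -0.07 (adjusted p = 0.826, exact), and the interval of its ratio, 0.738 to 1.22, leaves room for a difference in either direction. Mir301b, with 4 counts in all, was not tested, and its ratio of 2.87 had an interval from 0.231 to 151. By family, the miR-148 sum was 1.82-fold higher (1.64 to 2.03) in replicate 2 and the miR-130 sum 1.21-fold higher (1.16 to 1.25).

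**Figure D4:**
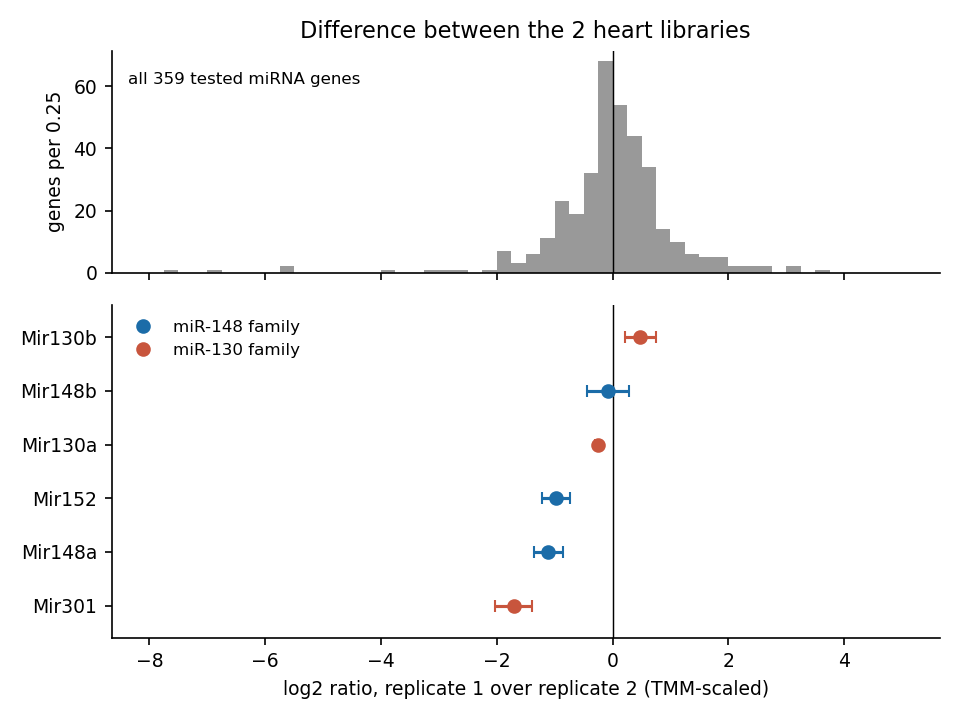
Log2 ratio of replicate 1 over replicate 2 on TMM-scaled sizes, as a histogram of all 359 tested genes above and with 95% exact intervals for the 6 tested members below. Mir130b lies right of 0 at 0.48, the interval of Mir148b spans 0, and the other 4 members lie left of 0, down to -1.71 for Mir301.

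With library size alone as the scaling, the median log2 ratio over all genes moved by -0.17 and the calls over all genes turned from 87 higher in replicate 1 and 72 in replicate 2 to 67 and 103. Under it the members kept their directions and calls, Mir130b with a log2 ratio of 0.31 and an adjusted p of 0.0427 in the exact test (0.000148 to 0.0427 over all alternatives), and Mir152 passed 2-fold with -1.15.

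Among genes that are no members, the nearest in level over both libraries, by distance in log2(CPM + 1), were the following. Mir130a lay closest to Mir92-1 (2599 and 3586 CPM) and Mir27b (3001 and 3955 CPM), and Mir130b closest to Mir337 (130 and 108 CPM) and Mir501 (125 and 116 CPM). Mir152 and Mir148a shared Mir181a-2 (120 and 222 CPM) as the nearest gene, followed by Mir24-2 for Mir152 and Mir101b for Mir148a. Mir301 lay nearest to Mir128-1 (60.7 and 160 CPM) and Mir547, and Mir148b to Mir431 (58.8 and 74.7 CPM) and Mir1843b. With 2 libraries, likeness means a similar level in each heart and no more.

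**Figure D5:**
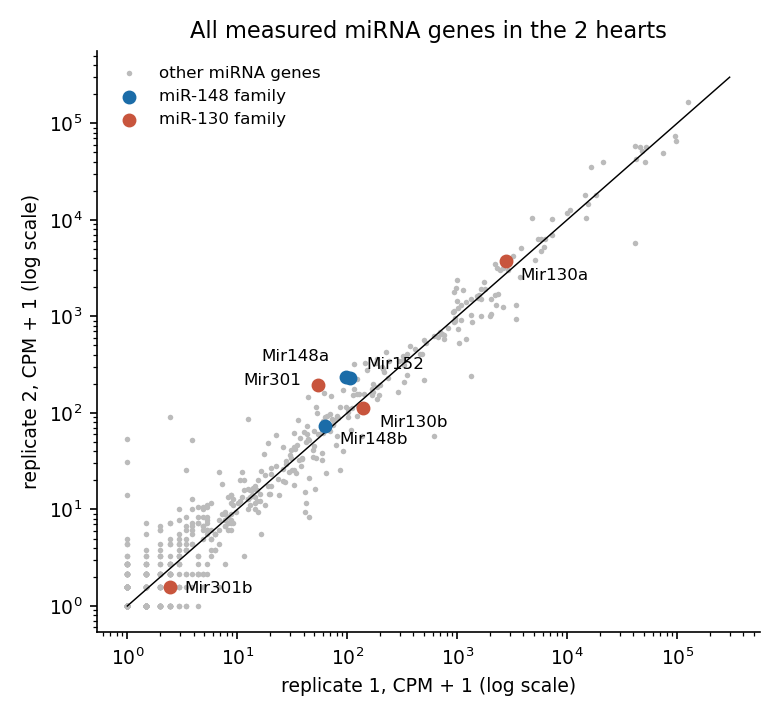
CPM + 1 of every measured miRNA gene in replicate 1 (x axis) and replicate 2 (y axis), both on log scales, with the members in colour and the line of equality in black. Mir301, Mir148a and Mir152 lie above the line and Mir130b below it, among other genes that also leave the line.

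Other miRNA genes with related roles went both ways, as did all tested genes (24.2% towards replicate 1 and 20.1% towards replicate 2). Of 11 vascular growth genes, 8 passed the test on TMM-scaled sizes, 5 of them towards replicate 1 and 3 towards replicate 2, at a median log2 ratio of 0.06 (0.01 over all tested genes). The 5 include Mir23b (52615 and 56762 CPM) and Mir23a (47760 and 51598 CPM), which have a log2 ratio of 0.06 each on that scaling but the higher CPM in replicate 2. Mir126a, the endothelial miRNA within Egfl7, had 97017 and 65811 CPM, higher in replicate 1, whereas Mir130a was higher in replicate 2. Of 8 cholesterol and lipid genes, 5 passed the test, 2 of them towards replicate 1 and 3 towards replicate 2 (median -0.14). Mir27b, their most abundant gene on average, had 3001 and 3955 CPM, and Mir122, the liver miRNA, 57.8 and 31.7 CPM. Of the 4 miR-29 genes, known to repress DNA methyltransferases in human cells, 2 differed towards replicate 1 and 1 towards replicate 2 (median 0.73). Mir29a, their most abundant gene, had 3239 and 4209 CPM. Of 8 cardiac muscle genes, 7 had enough counts to test, of which 1 differed towards replicate 1 and 3 towards replicate 2 (median -0.21). The 1 was Mir1a-2 (121 and 66 counts), and the 3 were Mir208a, Mir499 and Mir133b (2 and 10 counts). This list holds copies of Mir1a and of Mir133a, and multimapping reads entered no count.

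Markers of cell types also moved between the hearts. For comparison, 24.2% of all tested genes differed towards replicate 1 and 20.1% towards replicate 2. All 3 cardiac muscle markers (Mir208a, Mir208b and Mir499) were detected and summed to 6143 and 8701 CPM. Of 7 neuronal markers, Mir137 was detected, with 10.1 and 23.2 CPM, and differed towards replicate 2, Mir9-3 had 2 and 1 counts, and Mir124a-1, Mir124a-2, Mir124a-3, Mir9-1 and Mir9-2 were at 0. The Mir124a and Mir9 genes are copies with the same mature forms, and multimapping reads entered no count, so a 0 there says little. The heart gene copies Mir133a-1 (8 and 2 counts) and Mir1a-1 (8 and 7 counts) were also near the floor. The 3 erythroid markers summed to 45889 CPM (replicate 1) and 7589 CPM (replicate 2), and the 3 endothelial markers to 99058 and 66887 CPM. All 3 erythroid markers and 2 of the 3 endothelial markers differed towards replicate 1. The leukocyte markers summed to 4121 and 5447 CPM, and 3 of 4 differed towards replicate 2. The other leukocyte marker, Mir142 (500 and 219 CPM), differed towards replicate 1, so these markers did not move together. The epithelial markers summed to 351 and 714 CPM, and 4 of 7 differed towards replicate 2. The embryonic markers summed to 1.45 and 190 CPM. Of these 6, only 4 had enough counts to test, and all 4 differed towards replicate 2. Mir290a, Mir291a, Mir293, Mir294 and Mir295 were at 0 in replicate 1. The 2 smooth muscle markers summed to 43118 and 44232 CPM, mostly from Mir143. On TMM-scaled sizes Mir143 differed towards replicate 1 (log2 ratio 0.16) and Mir145a towards replicate 2 (log2 ratio -0.55). With TMM computed without the erythroid markers, the log2 ratios were -1.71 for Mir301, -1.11 for Mir148a and -0.98 for Mir152. Leaving them out moved the log2 ratios by a median of 0.0014, so it bears on the scaling and not on cell content. The part of any cell type, erythroid cells included, in the differences of the members was not tested.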

How the data were processed

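Small RNA libraries of 2 mouse hearts were analysed. The authors deposited raw read counts per miRNA gene, in unstranded, sense and opposite-strand columns. Build mm10 and GENCODE M21 were used, per the notes deposited beside the files. No aligner or counter is given in the sources used here. Sense counts over 2202 gene rows, all matched to GENCODE M21, were scaled to CPM; 4 rows that name no gene were left out (63.0% of reads in replicate 1 and 64.6% in replicate 2). A chi-square test over 359 genes gave 150266 with 358 degrees of freedom, so the files hold different libraries. TMM factors came from edgeR 4.0.16 and alternative size factors from DESeq2 1.42.0; log2 ratios used a prior count of 0.5. Genes with a summed count of at least 10 entered a two-sided exact binomial test, adjusted by Benjamini-Hochberg and called at 0.05. Intervals are exact (Clopper-Pearson, 95%) and cover counting error only. The test was checked on counts simulated with counting error alone, which is what it assumes. That check therefore does not cover further spread between libraries. Named genes were the members, genes with the same seed, the 2 nearest genes of each tested member in log2(CPM + 1), and up to 3 genes of each list with the highest mean. Beyond this rule, Mir122, Mir1a-2, Mir133b, markers at 0 and gene copies near the floor are named, chosen after their values were seen. One listed symbol, Mir92a-1, had no match. Members and lists were chosen with earlier results of these data known. Alternatives were other scalings, strand rules, detection limits, filters, prior counts, a thinned library and each library alone.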

Additional observations from a re-analysis of the deposited data

Results flagged for a closer look

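Reads on the strand opposite to a member were counted in a column that no comparison above uses. Mir130a had 12 such reads in replicate 1 and 4 in replicate 2, each more than the 3 counts that a count of 0 allows. They were 0.209% (exact interval 0.108 to 0.365) and 0.0612% (0.0167 to 0.157) of all reads at the gene. No annotated miRNA gene faces Mir130a on that strand, and the other 6 members had 0 such reads in both libraries. The source of these reads was not tested.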

How the results depend on the processing

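All 48 alternative log2 ratios of the 6 tested members kept their direction and their side of the threshold. The number of members that differed stayed at 5 under each alternative. Over all genes, 156 differed with DESeq2 size factors and 170 with library size alone, against 159 with TMM. With the library size over all rows, those that name no gene included, the mean level was 143 CPM for the miR-148 family and 1256 CPM for the miR-130 family, since the divisor grows. With counts without regard to strand the miR-130 family stood at 4816 CPM, where the divisor was 1473763 reads in replicate 1 and 1295913 in replicate 2. With each library alone, the families lay between 262 and 537 CPM and between 2955 and 4006 CPM. Depth limits Mir301b, which was neither tested nor detected. With 2 libraries, the spread between hearts rests on a single difference.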
